A study of Mus musculus with 20 samples.

Results

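The genes described here are 10 members of the ATF4 branch of the integrated stress response, Atf4, Ddit3, Trib3, Chac1, Asns, Psat1, Phgdh, Mthfd2, Fgf21 and Gdf15. They were taken by name as known members of the pathway, with earlier results of these data known, and all 10 were found among the 55335 gene identifiers of the count table. After the filter on low counts 14878 genes were tested, and 8 of the 10 members were among them. Fgf21 and Gdf15 were too low for the test and are given as counts.

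The measurements were RNA sequencing counts from frozen, powdered hearts of C57BL/6N mice on an NIH-31 diet, aged 3 to 5 months. OGFOD1 is a ribosomal prolyl hydroxylase. Its knockout (KO) was compared with wild type (WT), and mice of both genotypes carried an osmotic minipump for 2 weeks that delivered either isoproterenol, a beta-adrenergic agonist, or vehicle. The 20 libraries formed 4 groups of 5: KO isoproterenol (OGFOD1-KO, PBS with sodium ascorbate and isoproterenol), KO vehicle (OGFOD1-KO, PBS with sodium ascorbate), WT isoproterenol (WT, the same isoproterenol solution) and WT vehicle (WT, the same solution without isoproterenol). The solution of every group therefore held ascorbate. The allele of the knockout, and whether Ogfod1 was deleted in all cells, are not given in the sources used here.

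Library totals ran from 14609808 to 43671055 counts, and between 36.9% and 46.4% of them fell on mt-Rnr2, a ribosomal RNA of mitochondria. The counts outside the mitochondrial genes ran from 5916852 to 17121499. The targeted gene matched the labels. Ogfod1 averaged 3.18 ± 0.68 CPM (counts scaled to library size) in KO isoproterenol, 3.19 ± 0.58 in KO vehicle, 20.2 ± 1.35 in WT isoproterenol and 19.2 ± 1.44 in WT vehicle (SD, n = 5 each). The 5 cardiomyocyte markers (Myh6, Tnnt2, Actc1, Ryr2, Pln) summed to between 16251 and 28686 CPM. KO isoproterenol replicate 5 stood apart, with 959 CPM summed over 6 fibroblast markers and 1598 CPM over 6 smooth muscle and pericyte markers, against 547 to 623 and 708 to 739 CPM in the other 4 libraries of its group. Its 5 cardiomyocyte markers gave the lowest sum of all libraries, and WT vehicle replicate 2 gave the highest, so the tests were repeated without KO isoproterenol replicate 5 and without the pair. Whether the libraries of a group came from separate mice is not in the labels, so p-values measure the spread between these libraries, which may be technical.

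In the integrated stress response, any of several kinases phosphorylates the initiation factor eIF2. General protein synthesis then slows, while the mRNA of the transcription factor ATF4 is translated more. ATF4, often paired with C/EBP-family proteins, raises genes for amino acid synthesis, amino acid import, tRNA charging and one-carbon metabolism, together with the factor CHOP and the feedback regulator Trib3. In heart muscle the pathway is best known from mitochondrial disease, where FGF21 and GDF15 are secreted as signals to other organs. Because ATF4 is controlled largely at translation, its mRNA level does not give its activity, and these libraries measured RNA, not protein.

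The promoter sequences of the members are shown because 3 of them, Mthfd2, Asns and Trib3, shared their highest libraries, as described further on. The windows ran from 250 bases before to 50 bases after the annotated start (RefSeq, GRCm38.p6), and were searched on both strands for TGATGNAA, a form of the composite element bound by ATF4 with a C/EBP partner. A match was present for 4 of the 10 members, and for 1219 of all 27025 genes with a window (4.51%). In Asns, which makes asparagine, the match lay 23 to 16 bases before the start on the gene's own strand. In Trib3, a pseudokinase that dampens ATF4 and CHOP, it lay 15 to 22 bases after the start on the opposite strand. Chac1, which breaks down glutathione, and Fgf21, a secreted metabolic hormone, had it on the opposite strand, 193 to 186 and 139 to 132 bases before the start. Mthfd2, a mitochondrial enzyme of one-carbon metabolism, had no match in its window. The stretch shown for it lies inside the gene span given further on (chr6:83305691-83325908), not at the 5′ end of that span. All positions count from the RefSeq start, and the spans given further on have other 5′ ends for some genes. Against those spans the Asns match lies inside the gene, and the Trib3 match lies before the 5′ end of the gene. The sequences are written 5′ to 3′ on the strand of the gene, with the matched bases in capitals.
Asns, chr6:7693214-7693243 (minus strand): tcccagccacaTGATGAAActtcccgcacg
Trib3, chr2:152344028-152344057 (minus strand): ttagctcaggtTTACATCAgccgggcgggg
Chac1, chr2:119351012-119351131 (plus strand): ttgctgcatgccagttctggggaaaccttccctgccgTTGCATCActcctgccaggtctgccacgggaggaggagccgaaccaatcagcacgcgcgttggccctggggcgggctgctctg
Fgf21, chr7:45615551-45615670 (minus strand): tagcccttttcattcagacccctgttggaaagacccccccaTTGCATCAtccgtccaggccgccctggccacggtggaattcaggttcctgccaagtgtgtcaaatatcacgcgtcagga
Mthfd2, chr6:83317607-83317726 (minus strand): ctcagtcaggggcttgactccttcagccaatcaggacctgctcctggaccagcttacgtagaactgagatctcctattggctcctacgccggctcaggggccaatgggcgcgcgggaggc
The piece of Mthfd2 holds no capitals, since none of its bases matched on either strand. A match describes the letters only, and no binding was measured.

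Atf4 was by far the most abundant member. Per kilobase of exon its level averaged 19.0 ± 4.01 CPM over the 20 libraries (SD). Ddit3 followed with 2.37 ± 0.40 and Chac1 with 2.09 ± 0.80 CPM per kilobase. Asns (0.833), Mthfd2 (0.643), Trib3 (0.378), Phgdh (0.330) and Psat1 (0.304) were lower, Gdf15 averaged 0.152 and Fgf21 0.0329 CPM per kilobase. In this order the lowest library of Atf4 (13.5) lay above the highest of Ddit3 (3.43 CPM per kilobase), and every other pair of neighbours overlapped.

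**Figure D1:**
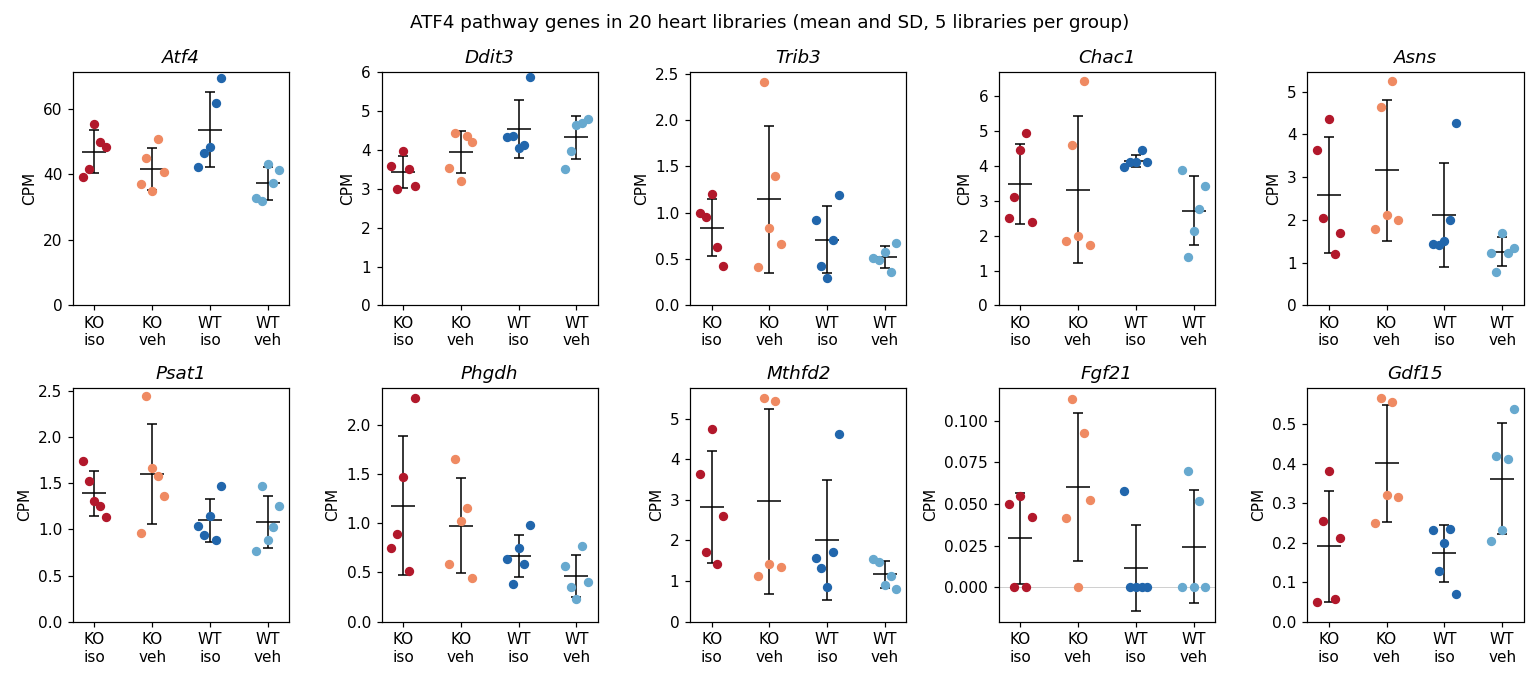
Levels of the 10 members in CPM (y axis, linear) by group (x axis; iso, isoproterenol; veh, vehicle), with 1 point per library and the mean with SD of 5 libraries in black. The highest 5 points of Mthfd2 and of Asns, up to 5.50 and 5.24 CPM, are 2 libraries of each KO group and 1 WT isoproterenol library. For Mthfd2 a further KO isoproterenol library (2.61 CPM) lies between these and the rest.

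The transcription factor gene Atf4 (ENSMUSG00000042406, chr15:80255184-80257541, plus strand) was higher with isoproterenol in WT hearts. It had 42.3, 46.5, 48.3, 61.7 and 69.4 CPM in WT isoproterenol, against 32.8, 31.9, 43.2, 37.2 and 41.3 CPM in WT vehicle. The groups overlapped only where WT isoproterenol replicate 1 lay below WT vehicle replicate 3. The log2 fold change was 0.52 (SE 0.14), with an adjusted p of 0.0245 by edgeR's quasi-likelihood test with Benjamini-Hochberg adjustment over all genes, the test behind every adjusted p given below unless another is named. Atf4 was the only one of the 8 tested members past the threshold of 0.05 in WT, where 8.76% of all genes passed. In KO hearts Atf4 had 39.2, 41.6, 55.3, 50.04 and 48.5 CPM with isoproterenol, against 37.1, 45.0, 34.9, 50.8 and 40.6 CPM with vehicle. These groups overlapped over most of their range, the log2 fold change was 0.17 (SE 0.14, adjusted p = 0.512), and 0 of 8 members passed in KO, against 9.03% of all genes. At an unadjusted p under 0.05 the count was also 0 of 8, against 23.1% of all genes, and 0 of 8 had groups that did not overlap, against 8.06%.

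The isoproterenol responses of Atf4 in KO and WT differed by −0.35 on the log2 scale (95% interval −0.77 to 0.07, adjusted p = 0.685), so a difference between genotypes was not shown. For this difference 0 of the 8 members and 0% of all genes passed, while 0 members and 7.68% of all genes had an unadjusted p under 0.05. With DESeq2 0 genes passed as well. Averaged over genotypes, isoproterenol raised Atf4 by 0.35 (SE 0.10, adjusted p = 0.0183), again as the only member, where 18.8% of all genes passed. The call in WT was lost without WT vehicle replicate 1, 2 or 4 or without WT isoproterenol replicate 4 or 5, with adjusted p between 0.0540 and 0.0719, and without the pair named above (adjusted p = 0.0745). The averaged call held without any single library, but not without both WT vehicle replicate 2 and KO isoproterenol replicate 5 (log2 fold change 0.32, adjusted p = 0.0602).

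Cell type markers moved in the same comparisons, and their part in the change of Atf4 was not tested. The 6 fibroblast markers summed to 487 to 574 CPM in WT isoproterenol, against 414 to 461 CPM in WT vehicle, and 3 of the 6 passed as higher. The 6 macrophage markers summed to 132 to 218 CPM in WT isoproterenol, against 117 to 136 CPM in WT vehicle, and 3 of the 6 passed as higher. Smooth muscle and pericyte markers summed to 680 to 779 CPM in WT isoproterenol, against 566 to 660 CPM in WT vehicle (2 of 6 called higher), and endothelial markers to 546 to 630 CPM, against 517 to 536 CPM (2 of 5 called higher). The sum of the 5 cardiomyocyte markers was lower, at 19528 to 21523 CPM in WT isoproterenol, against 22608 to 28686 CPM in WT vehicle. Of these 5, 1 was called lower, but 2 had a log2 fold change above 0, and the median was −0.001. Except for the macrophage markers, none of these sums overlapped between the groups. In WT 691 of all 14878 tested genes were called higher and 613 lower. In bulk hearts, more cells of a type and more RNA per cell cannot be told apart.

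No difference in Atf4 between KO and WT was detected. The log2 fold change of KO against WT was 0.16 under vehicle (adjusted p = 0.834), −0.19 under isoproterenol (adjusted p = 0.603) and −0.02 averaged over treatments (95% interval −0.23 to 0.19, adjusted p = 0.970). The 5 genes most like Atf4 over the 20 libraries, by Pearson's r of log2 CPM among 12695 genes, were Tmed4 (0.84), Cdpf1 (0.84), Chmp1a (0.80), Cox4i2 (0.80) and Eif1b (0.80). None of them is a member or belongs to a related list used here.

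Ddit3 (ENSMUSG00000025408, chr10:127290774-127296288, plus strand) encodes CHOP, a factor downstream of ATF4 in prolonged stress. Its levels in KO and WT hearts under isoproterenol did not overlap, but the difference did not pass the threshold. It had 3.59, 2.98, 3.98, 3.52 and 3.07 CPM in KO isoproterenol, against 4.33, 4.37, 4.05, 4.12 and 5.87 CPM in WT isoproterenol. All 5 KO libraries lay below all 5 WT libraries, with the nearest at 3.98 and 4.05 CPM. Groups did not overlap for 2.14% of all genes in this comparison, and for no other tested member. The log2 fold change was −0.39 (SE 0.13, unadjusted p = 0.00687, adjusted p = 0.225), and averaged over treatments it was −0.26 (SE 0.09, adjusted p = 0.208). With single libraries left out, the value under isoproterenol ran from −0.45 (without KO isoproterenol replicate 3) to −0.30 (without WT isoproterenol replicate 5). Its adjusted p ran from 0.157 to 0.415. Under vehicle the KO and WT groups overlapped, at 3.20 to 4.45 and 3.52 to 4.81 CPM. For isoproterenol the log2 fold change of Ddit3 was −0.22 in KO (adjusted p = 0.358) and 0.05 in WT (adjusted p = 0.864). The gene overlaps Mars on the other strand, and the strand setting of the counting is not given in the sources used here.

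Trib3 (ENSMUSG00000032715, chr2:152337422-152344032, minus strand) was low in all groups. It had 0.417, 2.41, 0.831, 1.39 and 0.658 CPM in KO vehicle, against 0.510, 0.489, 0.580, 0.360 and 0.674 CPM in WT vehicle. Replicates 2 and 4 of KO vehicle were the highest of all 20 libraries and the other 3 lay near or within the WT range. The log2 fold change was 1.10 (SE 0.41, unadjusted p = 0.0131, adjusted p = 0.425), and without a filter on low counts the adjusted p was 0.0420. Without KO vehicle replicate 2, with the filter, it was 0.60 (adjusted p = 0.722). Under isoproterenol the values were 0.998, 0.952, 1.2, 0.625 and 0.421 CPM in KO and 0.924, 0.428, 0.30, 0.703 and 1.19 CPM in WT, which overlapped throughout (log2 fold change 0.28, adjusted p = 0.840).

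Chac1 (ENSMUSG00000027313, chr2:119351229-119354381, plus strand) gave the tightest group of any tested member, the WT hearts with isoproterenol. In WT it had 3.98, 4.11, 4.10, 4.45 and 4.12 CPM with isoproterenol, against 3.88, 1.40, 2.13, 2.78 and 3.42 CPM with vehicle. All 5 isoproterenol libraries lay above all 5 vehicle libraries, which held for 4.29% of all genes and for no other tested member. The coefficient of variation was 4.21% in WT isoproterenol, against 36.4% in WT vehicle. Counting error at the 59 to 190 counts of WT isoproterenol is larger than 4.21%, so the tightness is not shown to be a trait of these hearts. The log2 fold change of 0.60 (SE 0.35) did not pass with the spread shared over all 4 groups (adjusted p = 0.333). It passed narrowly in a fit of the WT groups alone (adjusted p = 0.0456), which draws on that narrow spread. In KO the values were 2.49, 3.11, 4.47, 4.94 and 2.40 CPM with isoproterenol and 1.83, 4.6, 1.98, 6.44 and 1.74 CPM with vehicle. Replicates 2 and 4 of KO vehicle were high here too, and the log2 fold change was 0.07 (adjusted p = 0.941).

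**Figure D2:**
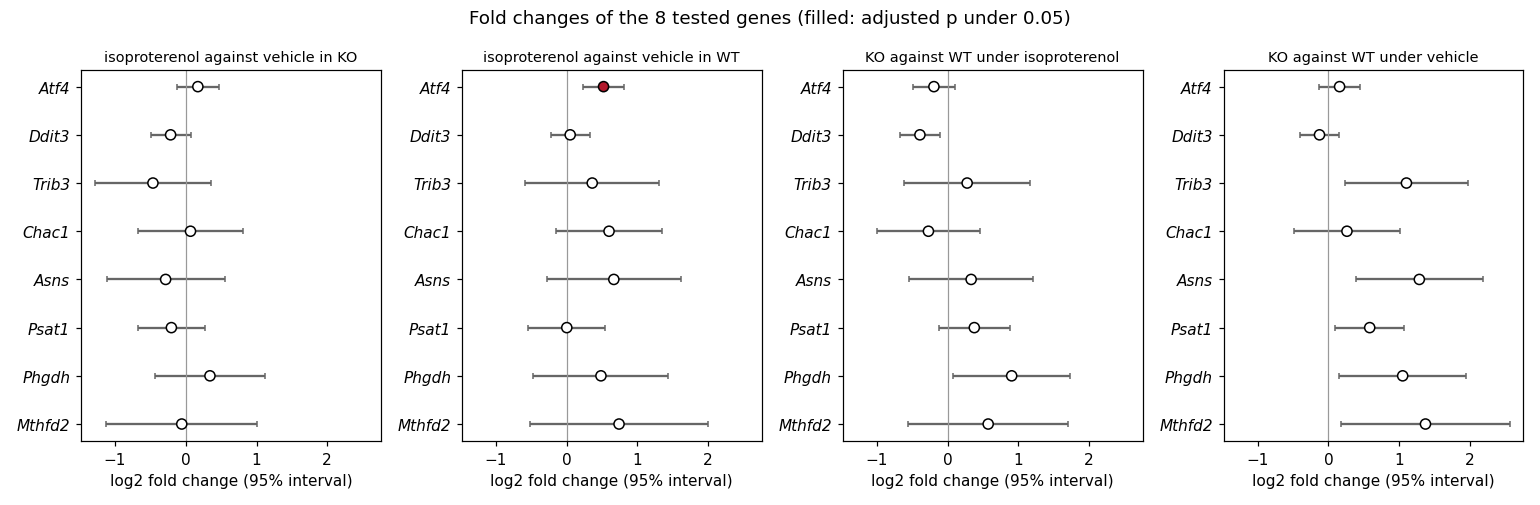
Log2 fold changes (x axis) of the 8 tested members (y axis) in the 4 comparisons of paired groups, with 95% intervals from edgeR's quasi-likelihood fit; filled points have an adjusted p under 0.05. Only Atf4 in WT is filled (0.52), and under vehicle 5 intervals of KO against WT, those of Trib3, Asns, Psat1, Phgdh and Mthfd2, lie above 0.

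The 4 metabolic enzymes make serine, asparagine and one-carbon units. Asns (ENSMUSG00000029752, chr6:7675169-7693254, minus strand) had 1.79, 4.64, 2.11, 5.24 and 2.00 CPM in KO vehicle, against 1.22, 0.769, 1.70, 1.24 and 1.35 CPM in WT vehicle. The groups did not overlap, which held in this direction for 0.995% of all genes and for no other tested member, but the KO libraries themselves fell into a pair above 4 CPM and 3 near 2 CPM. KO against WT gave a log2 fold change of 1.29 (SE 0.42, unadjusted p = 0.00749, adjusted p = 0.348). Under isoproterenol the values were 3.64, 2.03, 4.36, 1.19 and 1.68 CPM in KO and 1.44, 1.41, 1.5, 1.99 and 4.26 CPM in WT. These groups overlapped throughout (log2 fold change 0.33, adjusted p = 0.791; 0.07 without KO isoproterenol replicate 3 and 0.67 without WT isoproterenol replicate 5).

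Mthfd2 (ENSMUSG00000005667, chr6:83305691-83325908, minus strand) had 1.13, 5.50, 1.41, 5.42 and 1.34 CPM in KO vehicle, against 1.53, 1.47, 0.890, 1.13 and 0.809 CPM in WT vehicle. The KO group was again a pair of high libraries and 3 libraries inside or next to the WT range. Its log2 fold change under vehicle was 1.37 (SE 0.56, unadjusted p = 0.0265, adjusted p = 0.527). Under isoproterenol Mthfd2 had 3.64, 1.71, 4.75, 1.42 and 2.61 CPM in KO and 1.56, 1.33, 0.851, 1.71 and 4.61 CPM in WT (log2 fold change 0.57, adjusted p = 0.704; 0.32 without KO isoproterenol replicate 3 and 1.03 without WT isoproterenol replicate 5). WT isoproterenol replicate 5 was 2.70-fold above the next library of its group, while the other 4 overlapped WT vehicle.

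Phgdh (ENSMUSG00000053398, chr3:98313170-98339990, minus strand), the first enzyme of serine synthesis, had 0.748, 0.889, 1.47, 0.511 and 2.27 CPM in KO isoproterenol, against 0.635, 0.385, 0.751, 0.586 and 0.978 CPM in WT isoproterenol. The highest was KO isoproterenol replicate 5, the library with high fibroblast and smooth muscle markers. Under vehicle it had 0.583, 1.66, 1.02, 1.16 and 0.447 CPM in KO, against 0.561, 0.349, 0.232, 0.772 and 0.405 CPM in WT. Averaged over treatments the log2 fold change was 0.98 (SE 0.29, unadjusted p = 0.00228, adjusted p = 0.114), the smallest adjusted p of any member for genotype. Without a filter on low counts the adjusted p was 0.00110. Psat1 (ENSMUSG00000024640, chr19:15904678-15947337, minus strand), the next enzyme of the pathway, had an averaged log2 fold change of 0.48 (SE 0.17, adjusted p = 0.187). Its means were 1.39 ± 0.24 CPM in KO isoproterenol and 1.10 ± 0.23 in WT isoproterenol, and 1.6 ± 0.55 in KO vehicle and 1.08 ± 0.28 in WT vehicle (SD, n = 5 each). KO vehicle replicate 2 had 2.45 CPM, the highest of all 20 libraries, and the rest of its group 0.959 to 1.66 CPM. Without that library the averaged log2 fold change of Psat1 was 0.37 (adjusted p = 0.326).

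Averaged over treatments, 0 of the 8 tested members passed for KO against WT, where 0.847% of all genes passed. With DESeq2 0 members passed as well. At an unadjusted p under 0.05, 5 members lay higher in KO (Trib3, Asns, Psat1, Phgdh and Mthfd2) and Ddit3 lower, against 6.59% and 6.2% of all genes. The median log2 fold change of the 8 was 0.59, and that of all genes 0.00. In vehicle hearts alone 0 of 8 passed, against 0.128% of all genes. The same 5 were higher at an unadjusted p under 0.05, against 4.06% of all genes. KO vehicle replicate 2 ranked 1 or 2 among the 20 libraries for each of these 5, so they are not separate observations. Without it the values were 0.60 for Trib3, 0.37 for Psat1, 0.73 for Phgdh and 1.00 for Mthfd2. With all libraries they were 1.10, 0.58, 1.05 and 1.37. For Asns the lowest value was 1.04, without KO vehicle replicate 4. Under isoproterenol 0 of 8 passed, against 0.181% of all genes, and at an unadjusted p under 0.05 Phgdh was higher (log2 fold change 0.91, adjusted p = 0.329), against 7.21% of all genes, and Ddit3 lower, against 5.79%. Without KO isoproterenol replicate 5 the value of Phgdh was 0.50 (adjusted p = 0.652). The vehicle and isoproterenol contrasts use different libraries, while the averaged contrast uses both. Of the 6 fibroblast markers, 2 passed as higher in KO averaged over treatments (Lum and Dcn), against 0.383% of all genes. The 6 summed to 547 to 959 CPM in KO isoproterenol and 487 to 574 CPM in WT isoproterenol, and to 452 to 529 CPM in KO vehicle and 414 to 461 CPM in WT vehicle, with none of the 6 at 0. Their part in the values of the members was not tested.

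Of the secreted signals, Fgf21 (ENSMUSG00000030827, chr7:45613886-45615490, minus strand) was near the limit of detection, with 14 counts in all 20 libraries: 3 in KO isoproterenol, 8 in KO vehicle, 1 in WT isoproterenol and 2 in WT vehicle. No library had more than 3 counts, so no difference was detectable at this depth. Gdf15 (ENSMUSG00000038508, chr8:70629393-70632456, minus strand), a stress hormone of the TGF-beta family, was also scarce. Its counts were 1, 4, 7, 1 and 5 in KO isoproterenol, against 6, 15, 5, 12 and 12 in KO vehicle. In WT they were 4, 3, 4, 10 and 1 with isoproterenol, against 4, 6, 6, 8 and 12 with vehicle. Both pairs of groups overlapped in counts, which depend on depth, and also in CPM. In WT the CPM ranges overlapped narrowly, at 0.0699 to 0.234 with isoproterenol against 0.204 to 0.540 with vehicle. In KO they were 0.0499 to 0.382 against 0.250 to 0.565 CPM. With no low count filter the log2 fold change for isoproterenol averaged over genotypes was −1.01 (SE 0.34, adjusted p = 0.0400 over 32544 genes). For the same contrast DESeq2 gave −1.04 (adjusted p = 0.0346), a direction opposite to that of Atf4. Of their receptors, the FGF receptor gene Fgfr1 rose with isoproterenol in KO (0.36, SE 0.09, adjusted p = 0.0111). Ret, the signalling partner of the GDF15 receptor, fell in KO (−0.57, SE 0.18, adjusted p = 0.0414). In WT Fgfr1 changed by 0.07 and Ret by −0.51 (adjusted p = 0.0816 for Ret), and neither passed. The co-receptor gene Klb and the receptor gene Gfral did not pass the low count filter.

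The high values of the enzymes recurred in the same libraries. Mthfd2, Asns and Trib3 had the same 5 highest libraries: KO isoproterenol replicates 1 and 3, KO vehicle replicates 2 and 4, and WT isoproterenol replicate 5. No WT vehicle library was among them. This set was noticed in the values and is given as a description, with no test. In these 5 libraries Mthfd2 ran from 3.64 to 5.50 CPM and in the other 15 from 0.809 to 2.61 CPM. Asns ran from 3.64 to 5.24 and from 0.769 to 2.11 CPM, with a clear gap. For Mthfd2, KO isoproterenol replicate 5 (2.61 CPM) lay between the 5 libraries and the rest, which reached 1.71 CPM. Trib3 ran from 0.998 to 2.41 and from 0.30 to 0.952 CPM, so its 2 ranges almost touched.

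Of all 14878 tested genes, 8 had exactly these 5 libraries on top. Beside the 3 members, in whose values the set was noticed, they were Atf5, Yars, Grpel2, Cyb5r1 and Vmn2r3. Atf5 encodes a transcription factor related to ATF4, and had 18.9 to 28.0 CPM in the 5 libraries and 9.08 to 16.1 CPM in the rest. Yars, the tyrosyl-tRNA synthetase gene, had 11.9 to 13.5 and 9.23 to 11.9 CPM, and Grpel2, a mitochondrial import co-chaperone gene, 11.7 to 12.6 and 8.12 to 11.1 CPM. Cyb5r1 encodes a cytochrome b5 reductase and had 9.98 to 11.0 and 7.62 to 9.85 CPM. Vmn2r3 (chr3:64257215-64289709, minus strand) is annotated as a vomeronasal receptor gene, and had 19 to 53 counts in the 5 libraries and 0 to 9 counts in the rest, the widest gap of the 8 on the log2 scale.

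**Figure D3:**
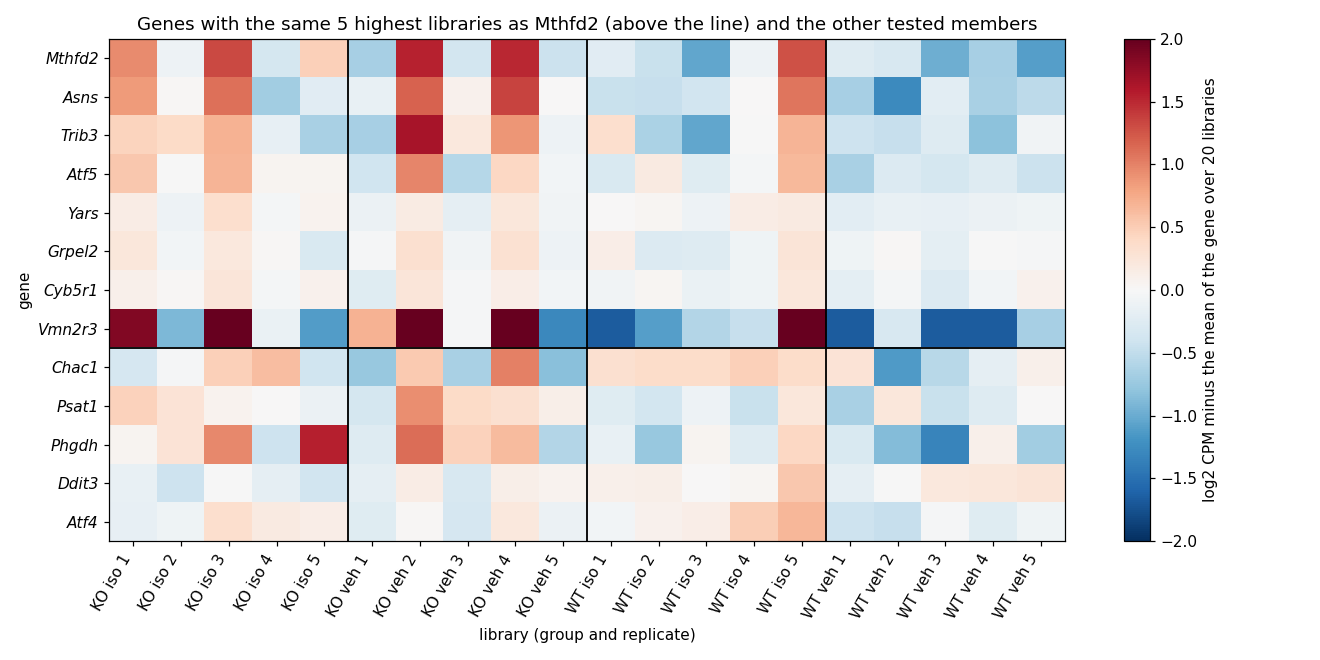
Log2 CPM of each gene (y axis) in each library (x axis, by group and replicate) minus the mean of that gene over the 20 libraries, with colours capped at 2 in either direction. The 8 genes above the horizontal line share their 5 highest libraries, KO isoproterenol 1 and 3, KO vehicle 2 and 4 and WT isoproterenol 5, while Atf4, in the bottom row, ranks 15 in the first of these and 1 in the last.

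Atf4 had 3 of the 5 libraries among its own 5 highest. In the same 5 libraries its ranks among 20 were 15 in KO isoproterenol replicate 1, 3 in KO isoproterenol replicate 3, 9 in KO vehicle replicate 2, 4 in KO vehicle replicate 4 and 1 in WT isoproterenol replicate 5. Chac1, Psat1 and Phgdh each had 3 of the 5 libraries among their 5 highest. Ddit3 had 2. The spread of Mthfd2 between libraries of a group, as edgeR's biological coefficient of variation, was 3.25 times that of the trend at its level, and 0.612% of all genes had a larger ratio. The ratio was 2.52 for Asns, 2.40 for Chac1, 1.80 for Trib3, 1.74 for Phgdh, 1.46 for Atf4, 0.976 for Psat1 and 0.776 for Ddit3.

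Depth and cell type markers of the 5 libraries lay mostly inside the range of the other 15. Counts outside the mitochondrial genes were 5916850 to 11110400 in the 5 and 6269960 to 17121500 in the rest. The share of mt-Rnr2 was 44.2% to 46.4% and 36.9% to 46.4%. Summed fibroblast markers were 452 to 592 CPM and 414 to 959 CPM, and summed macrophage markers 134 to 169 CPM and 117 to 218 CPM. Summed adipocyte markers were 2.24 to 16.7 CPM and 3.10 to 21.6 CPM. The part of these values in the shared pattern was not tested.

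**Figure D4:**
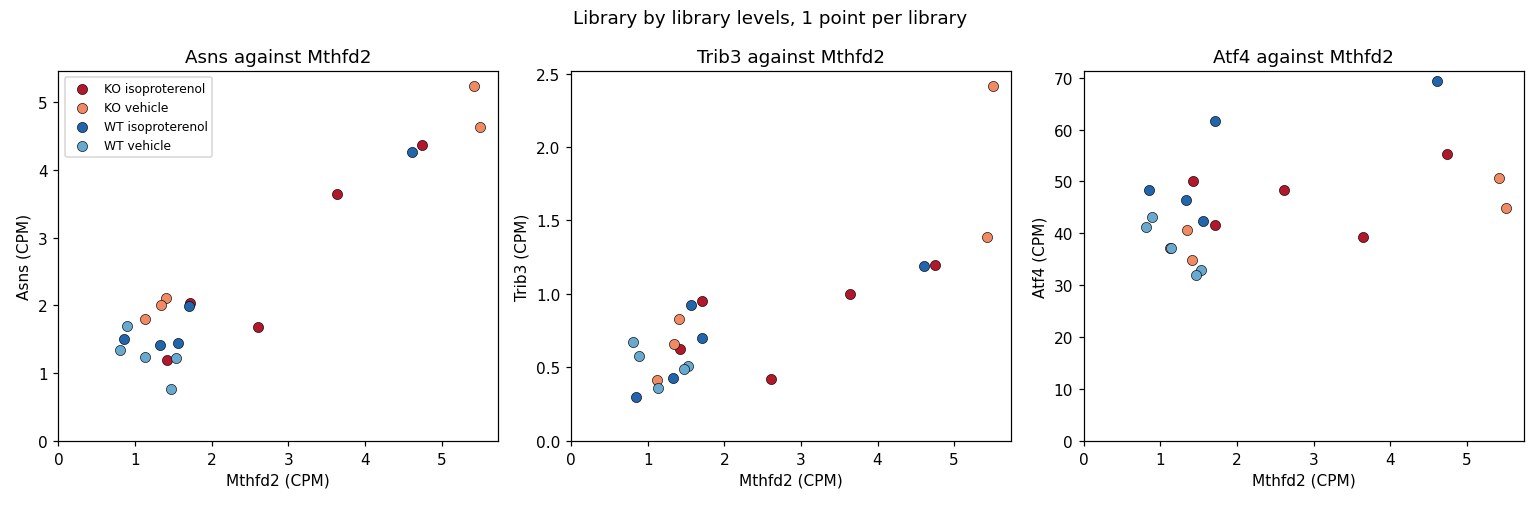
Asns, Trib3 and Atf4 (y axes, CPM) against Mthfd2 (x axis, CPM), with 1 point per library coloured by group. In the first 2 panels the 5 libraries with Mthfd2 above 3.6 CPM are also the highest on the y axis, and the third shows Atf4 from 39.2 to 69.4 CPM in the same libraries.

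The members were also compared pair by pair, as log2 CPM minus the mean of the group, over 20 libraries and 28 pairs. By Pearson's r all 28 were positive and 10 passed, and by Spearman's rho 11 passed and 1, that of Atf4 with Psat1, was below 0 (two-sided permutation test with 100000 resamples, Benjamini-Hochberg adjustment over 28 pairs). Because the same 5 libraries hold the highest values of Mthfd2 and Asns, no pooled value is given for their pairs. How many pairs of all genes pass in the same way was not computed. Within the 15 libraries outside the set of 5, 0 of the 28 pairs passed by Pearson's r and 15 were positive. There r was −0.09 for Mthfd2 with Asns (0.12 without subtraction of group means) and 0.42 for Phgdh with Mthfd2. Those libraries exclude the highest ones of Mthfd2, Asns and Trib3 by choice, which narrows the range of these genes. The values are therefore a description only. Atf4 and Ddit3 gave r = 0.70 (adjusted p = 0.00462) and rho = 0.64 (adjusted p = 0.0205) over 20 libraries by the same permutation test, and r = 0.40 without subtraction of group means. Without the 2 libraries farthest from the median of Atf4 their r was 0.65. Within the 15 libraries it was 0.55, which did not pass (adjusted p = 0.651 by the same permutation test).

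Related genes of the pathway were counted from lists chosen with earlier results known. Among 23 other targets of ATF4 and CHOP, 2 were higher and 1 lower with isoproterenol in KO, against 4.75% and 4.29% of all genes. The neutral amino acid transporter Slc1a5 averaged 16.2 ± 2.33 CPM in KO isoproterenol and 11.8 ± 0.99 in KO vehicle (SD, n = 5 each), and its log2 fold change was 0.46 ± 0.10 (SE, adjusted p = 0.00253). Its relative Slc1a4 rose by 0.81 (SE 0.22, adjusted p = 0.0199), but by 0.44 without KO isoproterenol replicate 5 (adjusted p = 0.135). Vldlr, a lipoprotein receptor gene, fell by 0.26 in KO (adjusted p = 0.00708) and by 0.22 in WT (adjusted p = 0.0262), the only call of the list in WT. The list had 2 higher and 1 lower in WT without KO isoproterenol replicate 5, and 1 higher and 1 lower without the pair. The list median was 0.07 in KO and 0.11 in WT, and that of all genes 0.01 and 0.00.

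Averaged over genotypes, 5 of the 23 were higher and 1 lower with isoproterenol, against 9.76% and 9.07% of all genes. Atf3, a stress-induced factor of the same family, rose by 1.67 (SE 0.38, adjusted p = 0.00569), with 16.5 ± 7.89 CPM in KO isoproterenol against 5.40 ± 2.51 in KO vehicle, and 15.8 ± 8.49 CPM in WT isoproterenol against 4.57 ± 3.45 in WT vehicle (SD, n = 5 each). It did not pass in KO alone (adjusted p = 0.0773) or in WT alone (adjusted p = 0.0585). For KO averaged over treatments Slc1a5 was the only call of the list, higher by 0.31 (SE 0.07, adjusted p = 0.0241), against 0.383% of all genes.

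Upstream, among 18 genes of the eIF2 kinases, eIF2, eIF2B and the eIF2 phosphatase, 1 was higher and 2 lower with isoproterenol in KO, against 4.75% and 4.29% of all genes. In WT 0 passed with edgeR, against 8.76% of all genes, and 3 had an unadjusted p under 0.05, against 23% of all genes. Without KO isoproterenol replicate 5, 1 passed in WT. Ppp1r15a, which encodes GADD34, the stress-induced subunit that directs dephosphorylation of eIF2, rose by 0.34 in KO (SE 0.10, adjusted p = 0.0364). The protease Oma1 and its substrate Dele1, which relay mitochondrial stress to this pathway, fell by 0.34 (adjusted p = 0.0267) and 0.23 (adjusted p = 0.0186) in KO. Oma1 lost its call without KO isoproterenol replicate 5 (adjusted p = 0.0700). Averaged over genotypes, Eif2ak2, which encodes the kinase PKR, rose by 0.31 (SE 0.08, adjusted p = 0.00858).

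Of 16 further enzymes of serine, glycine, proline and one-carbon metabolism, 1 passed in each genotype with isoproterenol, against 9.03% of all genes in KO and 8.76% in WT. Aldh1l2, the mitochondrial formyltetrahydrofolate dehydrogenase gene, fell by 0.45 in KO (SE 0.12, adjusted p = 0.0143), with 6.73 ± 0.52 CPM in KO isoproterenol against 9.24 ± 1.47 in KO vehicle (SD, n = 5 each). Sfxn1, a mitochondrial serine carrier gene, rose by 0.40 in WT (SE 0.13, adjusted p = 0.0471), but lost its call without the pair of libraries (0.37, adjusted p = 0.0778), when 0 of the 16 passed in WT, while 2 passed without KO isoproterenol replicate 5 alone. Of 20 cytosolic aminoacyl-tRNA synthetase genes 2 passed in each genotype, against the same shares of all genes. Dars and Kars fell in KO, by 0.32 and 0.30 (adjusted p = 0.00379 and 0.00219), and in WT Kars fell by 0.22 (adjusted p = 0.0265) and Aars rose by 0.26 (adjusted p = 0.0474). In WT 2 were higher and 1 lower without KO isoproterenol replicate 5, and 1 higher and 2 lower without the pair.

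In the other stress branches the genes that passed with isoproterenol were lower. Of 20 genes of the endoplasmic reticulum chaperone and unfolded protein response branches, 7 were lower and 0 higher with isoproterenol in KO, against 4.29% of all genes lower, with a list median of −0.22. The ER chaperone Hspa5 averaged 155 ± 8.17 CPM in KO isoproterenol and 204 ± 9.66 in KO vehicle (SD, n = 5 each), a change of −0.40 (SE 0.07, adjusted p = 0.000253). In WT 3 were lower and 0 higher, against 4.12% of all genes lower, among them Calr (−0.24, adjusted p = 0.0170) and Canx (−0.27, adjusted p = 0.00580), chaperones of glycoprotein folding. Of 10 genes of the mitochondrial unfolded protein response, 5 were lower in KO and 1 in WT, the chaperonin gene Hspd1, with 79.5 ± 5.82 CPM in WT isoproterenol against 104 ± 8.75 in WT vehicle (SD, n = 5 each; −0.39, SE 0.07, adjusted p = 0.000384). Without KO isoproterenol replicate 5 the counts of the 2 lists in KO were 9 and 4, and in WT 4 and 1. Without the pair they were 3 and 2 in WT. The 6 fibroblast markers summed to 547 to 959 CPM in KO isoproterenol and 452 to 529 CPM in KO vehicle (3 called higher). The 6 macrophage markers summed to 156 to 183 and 134 to 144 CPM (2 called higher). Of all genes, 4.75% were called higher in KO. The part of these markers in the list counts was not tested. No gene passed for the difference between genotypes, so the larger counts in KO are not shown to differ from those in WT.

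**Figure D5:**
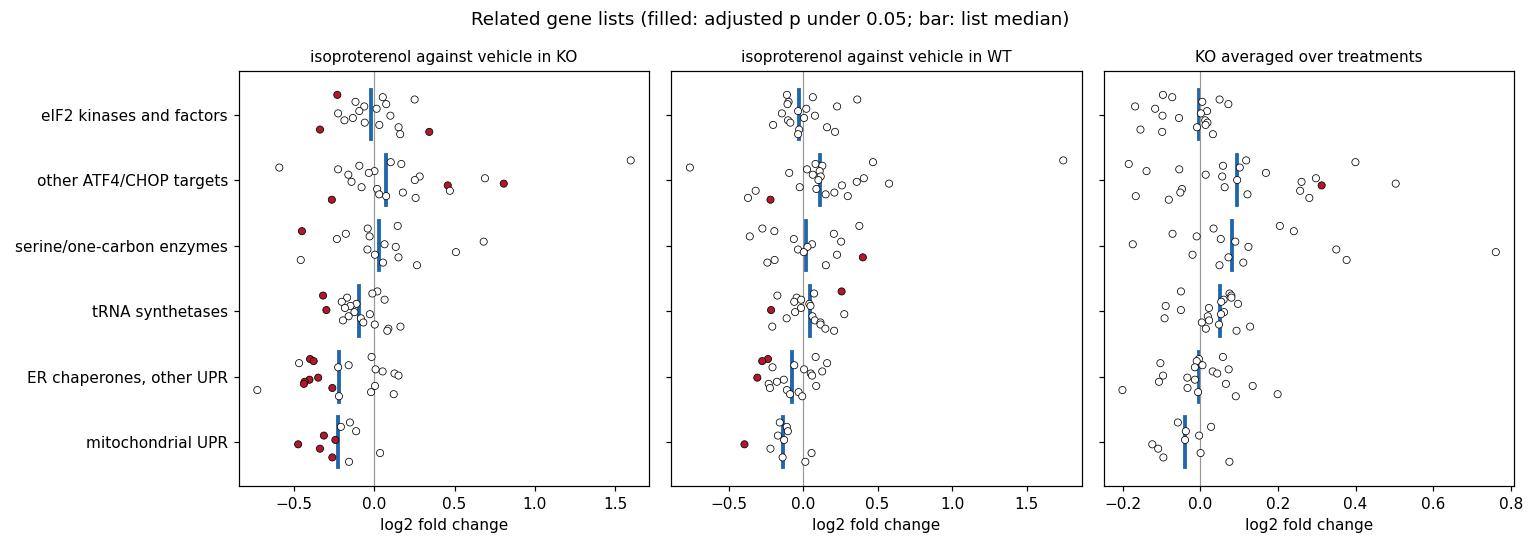
Log2 fold changes (x axes) of the genes of 6 related lists (y axis) for isoproterenol against vehicle in KO and in WT and for KO against WT averaged over treatments; filled points have an adjusted p under 0.05 and bars are list medians. The medians of the unfolded protein response lists lie left of 0 with isoproterenol, at −0.22 and −0.22 in KO and −0.07 and −0.13 in WT, while 1 point, Slc1a5, is filled for KO against WT.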

How the data were processed

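Total RNA from mouse hearts was made into 20 stranded libraries with Illumina's TruSeq kit, per the labels' protocols. The authors deposited raw counts per gene, not normalized. The submitters' processing notes name HISAT2 2.1.0, featureCounts 1.6.3, R 3.6.0, limma 3.40.6 and the build GRCm38. The annotation and strand setting of the counting are not given in the sources used here. Of 55335 identifiers, 55154 were found in GENCODE vM21, which gave symbols and coordinates. A pair of identifiers carries the symbol Ddit3 and the one with 0 counts was left out.

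Counts were fitted with edgeR 4.0.16 (R 4.3.3): filterByExpr, TMM scaling, robust quasi-likelihood fit of 4 group means over all 20 libraries (16 residual degrees of freedom), Benjamini-Hochberg adjustment over 14878 genes, threshold 0.05. Levels are CPM scaled by TMM, and a count of 1 was 0.0234 to 0.0699 CPM. Log2 CPM used a prior count of 2. Intervals are 95%. The common biological coefficient of variation was 0.119. The test was tried on simulated data before use. DESeq2 1.42.0, limma-voom 3.58.1, other scalings, other filters and left-out libraries were alternatives. Every member was reported, and up to 4 genes of each other list, those with the smallest p in any comparison; Atf5 and the other genes sharing 5 libraries were named after their values were seen. The members and lists were chosen with earlier results of these data known. Promoter windows came from RefSeq (GRCm38.p6).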

Additional observations from a re-analysis of the deposited data

Results flagged for a closer look

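In WT isoproterenol, replicate 5 lay far above the other 4 libraries of its group for 3 members. It had 4.26 CPM of Asns, and the next library had 1.99 CPM. For Mthfd2 it had 4.61 CPM and the next library 1.71 CPM. For Ddit3 it had 5.87 CPM and the next library 4.37 CPM. Each gap was larger than Dixon's 95% critical value of 0.710 of the group's range. These were 3 of 32 groups checked, where chance alone flags about 1 in 20. All 3 came from this 1 library, so they are not separate checks, and an excess over chance is not shown. The same library had the highest Atf4 of all 20, at 69.4 CPM. The reason for its high values was not tested.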

How the results depend on the processing

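Each of the 56 member results was recomputed under other tools, scalings, filters and left-out libraries, 1592 values in all. Of these, 1524 kept the direction and the side of the threshold, 58 changed sign, 7 lost a call and 3 gained one. All 58 belonged to results that had not passed, the largest of them 0.46 in size on the log2 scale. The cause was not tested for any of them.

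All 7 lost calls were of Atf4, given in the report. The 3 gained were of Trib3 and Phgdh without a low count filter and of Chac1 in a fit of the WT groups alone. Members called with isoproterenol averaged over genotypes numbered 1, but 2 (Atf4 and Gdf15) with DESeq2 or without a low count filter. Without the filter 1 member was called for KO under vehicle (Trib3) and 1 for KO averaged (Phgdh). In a fit of the WT groups alone 2 were called (Atf4 and Chac1). All genes called for KO numbered 27 under isoproterenol, 19 under vehicle and 126 averaged. DESeq2 called 133, 72 and 225. Without the filter, over 32544 genes, 250, 117 and 350 were called, and 34 for the difference between responses, against 0. With upper quartile scaling the calls under vehicle split 9 higher and 6 lower, against 9 and 10. Psat1 with isoproterenol in WT, 0.00 in the report, was −0.00025 with DESeq2, −0.0100 with limma-voom, −0.0033 with DESeq2's scaling in edgeR, −0.0015 with a minimum of 10 counts in every library of a group and −0.0027 without mitochondrially encoded genes. Chac1 for KO averaged was 0.0088 with DESeq2, and Mthfd2 with isoproterenol in KO 0.22 with limma-voom.

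Leaving out single libraries, or WT vehicle replicate 2 and KO isoproterenol replicate 5 together, gave 0 to 1 members called with isoproterenol in WT and 0 to 1 averaged. All genes called for KO numbered 10 to 55 under isoproterenol, 10 to 38 under vehicle and 74 to 175 averaged, and 0 to 4 for the difference. The log2 fold changes that changed sign ran as follows. With isoproterenol in WT they were −0.044 to 0.092 for Ddit3 and −0.10 to 0.11 for Psat1. With isoproterenol in KO they were −0.68 to 0.037 for Trib3, −0.12 to 0.44 for Chac1, −0.34 to 0.014 for Psat1, −0.066 to 0.66 for Phgdh and −0.31 to 0.31 for Mthfd2. Averaged over genotypes they were −0.16 to 0.20 for Trib3 and −0.17 to 0.0079 for Psat1. For KO under vehicle Chac1 ran from −0.11 to 0.45. For KO averaged Atf4 ran from −0.058 to 0.035 and Chac1 from −0.19 to 0.090. For the difference Phgdh ran from −0.55 to 0.17 and Psat1 from −0.34 to 0.0115. Correlated pairs numbered 16 of 28 without both libraries, against 10, and list counts without these libraries were added after the data were seen. No paired analysis was possible because the labels number the libraries in 1 run and give no number shared between groups. Depth limited Fgf21 and Gdf15, where 1 count was 0.0234 to 0.0699 CPM.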
